A study of Mus musculus with 32 samples.

Results

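The 10 genes of MHC class I antigen presentation examined here are H2-K1, H2-D1, B2m, Tap1, Tap2, Tapbp, Psmb8, Psmb9, Psmb10 and Nlrc5. They were chosen by name, their symbols were matched to the Ensembl identifiers of the deposited count files, and all 10 were found among 41388 genes. Their RNA was followed in 32 libraries of primary mouse chondrocytes, the cells that make and maintain cartilage, with 2 libraries in each of 16 conditions. The study asked how lactate dehydrogenase A and related factors shape the answer of chondrocytes to the inflammatory cytokine IL-1β, and the comparisons below ask what the class I genes did in the same cultures. All mice were labelled C57BL/6, and per the study's methods the cells came from the sterna and ribs of newborn pups without regard to sex.

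Wild-type chondrocytes received no virus and were left untreated or given IL-1β (10 ng/mL), the lactate dehydrogenase inhibitor FX11 (40 µM), or both, each over 24 h. In the floxed lines (Ldha f/f, Nampt f/f, and also Nfkbiz f/f) loxP sites flank the named gene in every library. These cells were given adenovirus expressing eGFP alone (GFP cultures) or Cre recombinase with eGFP (Cre cultures), and each kind was kept without IL-1β or with the same dose for the same time. The GFP cultures therefore also carry the virus, eGFP and the floxed alleles, and no library carries Cre without a floxed target, so an effect of Cre itself and of the deletion cannot be told apart. Neither the labels nor the methods say that the 2 libraries of a condition came from separate cultures or pups, so the p-values measure the spread between these libraries, which may be technical. In bulk RNA, more cells of a type and more RNA per cell cannot be told apart.

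MHC class I molecules show peptides from inside a cell to CD8 T cells. A heavy chain, encoded in mouse by H2-K1 and H2-D1, pairs with β2-microglobulin, encoded by B2m. The peptides are cut by the proteasome, whose catalytic subunits can be replaced by the immunoproteasome subunits Psmb8, Psmb9 and Psmb10, and are carried into the endoplasmic reticulum by the transporter of Tap1 and Tap2. Tapasin, encoded by Tapbp, holds the transporter and the empty heavy chain together while peptide is loaded, and NLRC5 is the transactivator that joins the protein complex on the promoters of class I genes. Nearly all nucleated cells carry class I molecules, and interferons and NF-κB are known to raise several of these genes.

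In the deposited annotation (GRCm38), 7 of the 10 genes lay on chromosome 17. H2-K1 spanned chr17:33996017-34000333 on the minus strand, Tapbp chr17:33915899-33929288, Psmb9 chr17:34181988-34187764 on the minus strand, Tap1 chr17:34187553-34197225, Psmb8 chr17:34197721-34201454, Tap2 chr17:34203527-34216321 and H2-D1 chr17:35262730-35267499. The other members were B2m at chr2:122147686-122153083, Nlrc5 at chr8:94472763-94527272 and Psmb10 at chr8:105935728-105938392 on the minus strand. Psmb9 and Tap1 lie head to head on opposite strands and share 212 exon bases. Tapbp shares 665 exon bases with the antisense gene Gm19412 and 61 with Zbtb22, Psmb8 shares 186 with Gm20496, and Tap2 shares 165 with Gm20496 and 533 with Gm15821. Whether counting used the strand was not stated, so reads from these overlaps cannot be assigned to one gene. Class I heavy chains are also near-identical copies of each other, and counts of H2-K1, H2-D1 and the H2-Q and H2-T genes are uncertain to the extent that reads fit more than one of them.

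Promoter windows of the heavy chains, B2m and Tap1 are shown because class I promoters are classically described by a κB-like enhancer and by X2 and Y boxes, where the complex that NLRC5 joins is bound. Each is the 200 bases before the start in RefSeq's annotation, build GRCm38.p6, read 5′ to 3′ on the gene's own strand. RefSeq windows matched 8 of the 10 members, and none was matched for Tap2 or Nlrc5. B2m is chr2:122147487-122147686, H2-K1 chr17:34000334-34000533 (minus strand), H2-D1 chr17:35262894-35263093 and Tap1 chr17:34187356-34187555. Capitals mark matches to GGGNNTTCC, GGGACTTTC, GAAANNGAA, TGACG and ATTGG on either strand.
B2m: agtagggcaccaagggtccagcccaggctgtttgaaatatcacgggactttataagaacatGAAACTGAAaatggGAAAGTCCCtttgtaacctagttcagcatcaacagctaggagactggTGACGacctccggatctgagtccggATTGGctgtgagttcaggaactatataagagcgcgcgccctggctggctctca
H2-K1: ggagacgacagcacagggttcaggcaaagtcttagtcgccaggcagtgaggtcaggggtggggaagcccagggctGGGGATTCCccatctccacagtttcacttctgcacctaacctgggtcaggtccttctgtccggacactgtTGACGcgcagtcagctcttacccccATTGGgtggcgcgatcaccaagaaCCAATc
H2-D1: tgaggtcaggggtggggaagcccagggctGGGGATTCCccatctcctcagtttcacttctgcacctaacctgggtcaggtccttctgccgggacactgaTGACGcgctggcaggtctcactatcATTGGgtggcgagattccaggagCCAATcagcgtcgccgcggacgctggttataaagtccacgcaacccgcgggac
Tap1: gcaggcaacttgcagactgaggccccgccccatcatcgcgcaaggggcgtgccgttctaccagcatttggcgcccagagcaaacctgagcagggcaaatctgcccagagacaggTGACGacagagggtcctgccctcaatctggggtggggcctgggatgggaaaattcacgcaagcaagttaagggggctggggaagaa

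The motifs were chosen after these windows had been seen, and both strands of 32817 promoters were searched in windows of the same length. TGACG followed by ATTGG with 20 bases between them was found in B2m, H2-K1 and H2-D1, and in 0.0823% of all promoters (27 of them). H2-K1 and H2-D1 each held GGGGATTCC, a match to GGGNNTTCC, which 4.13% of promoters hold, starting at -125 and -171 from the gene start. B2m held GGGACTTTC on the opposite strand at -125 from its start, a motif of 0.241% of promoters, and GAAANNGAA, found in 5.56%, at -139. TGACG alone (15.6% of promoters) was also in Tap1 and Psmb9, whose windows cover much of the same DNA, and ATTGG alone (29.3%) in Tapbp and Psmb9. A match describes letters and is neither a bound site nor a cause of a value below.

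Levels differ between the members by orders of magnitude. Deposited RPKM, which divides by gene length and so allows a comparison between genes, was highest for B2m, with a median of 286 over 32 libraries (191.9 to 935.7). The heavy chains and tapasin followed, H2-K1 at a median of 37.39 RPKM, H2-D1 at 36.13 and Tapbp at 29.24. H2-K1 exceeded H2-D1 in 20 of 32 libraries and H2-D1 exceeded Tapbp in 23, so their order was not fixed. Psmb10 had a median of 7.167 RPKM and Tap1 of 3.268, each below the gene before it in 32 of 32 libraries. Tap2 (median 1.19 RPKM), Nlrc5 (0.7783), Psmb8 (0.4634) and Psmb9 (0.3369) were the least abundant. Psmb8 had 4 to 128 counts and Psmb9 7 to 80 counts per library, and they lay under 1 CPM in 13 and 11 libraries, so their fold changes are the least precise of the list. All other values below are CPM scaled by TMM factors, which compare libraries and not genes.

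**Figure D1:**
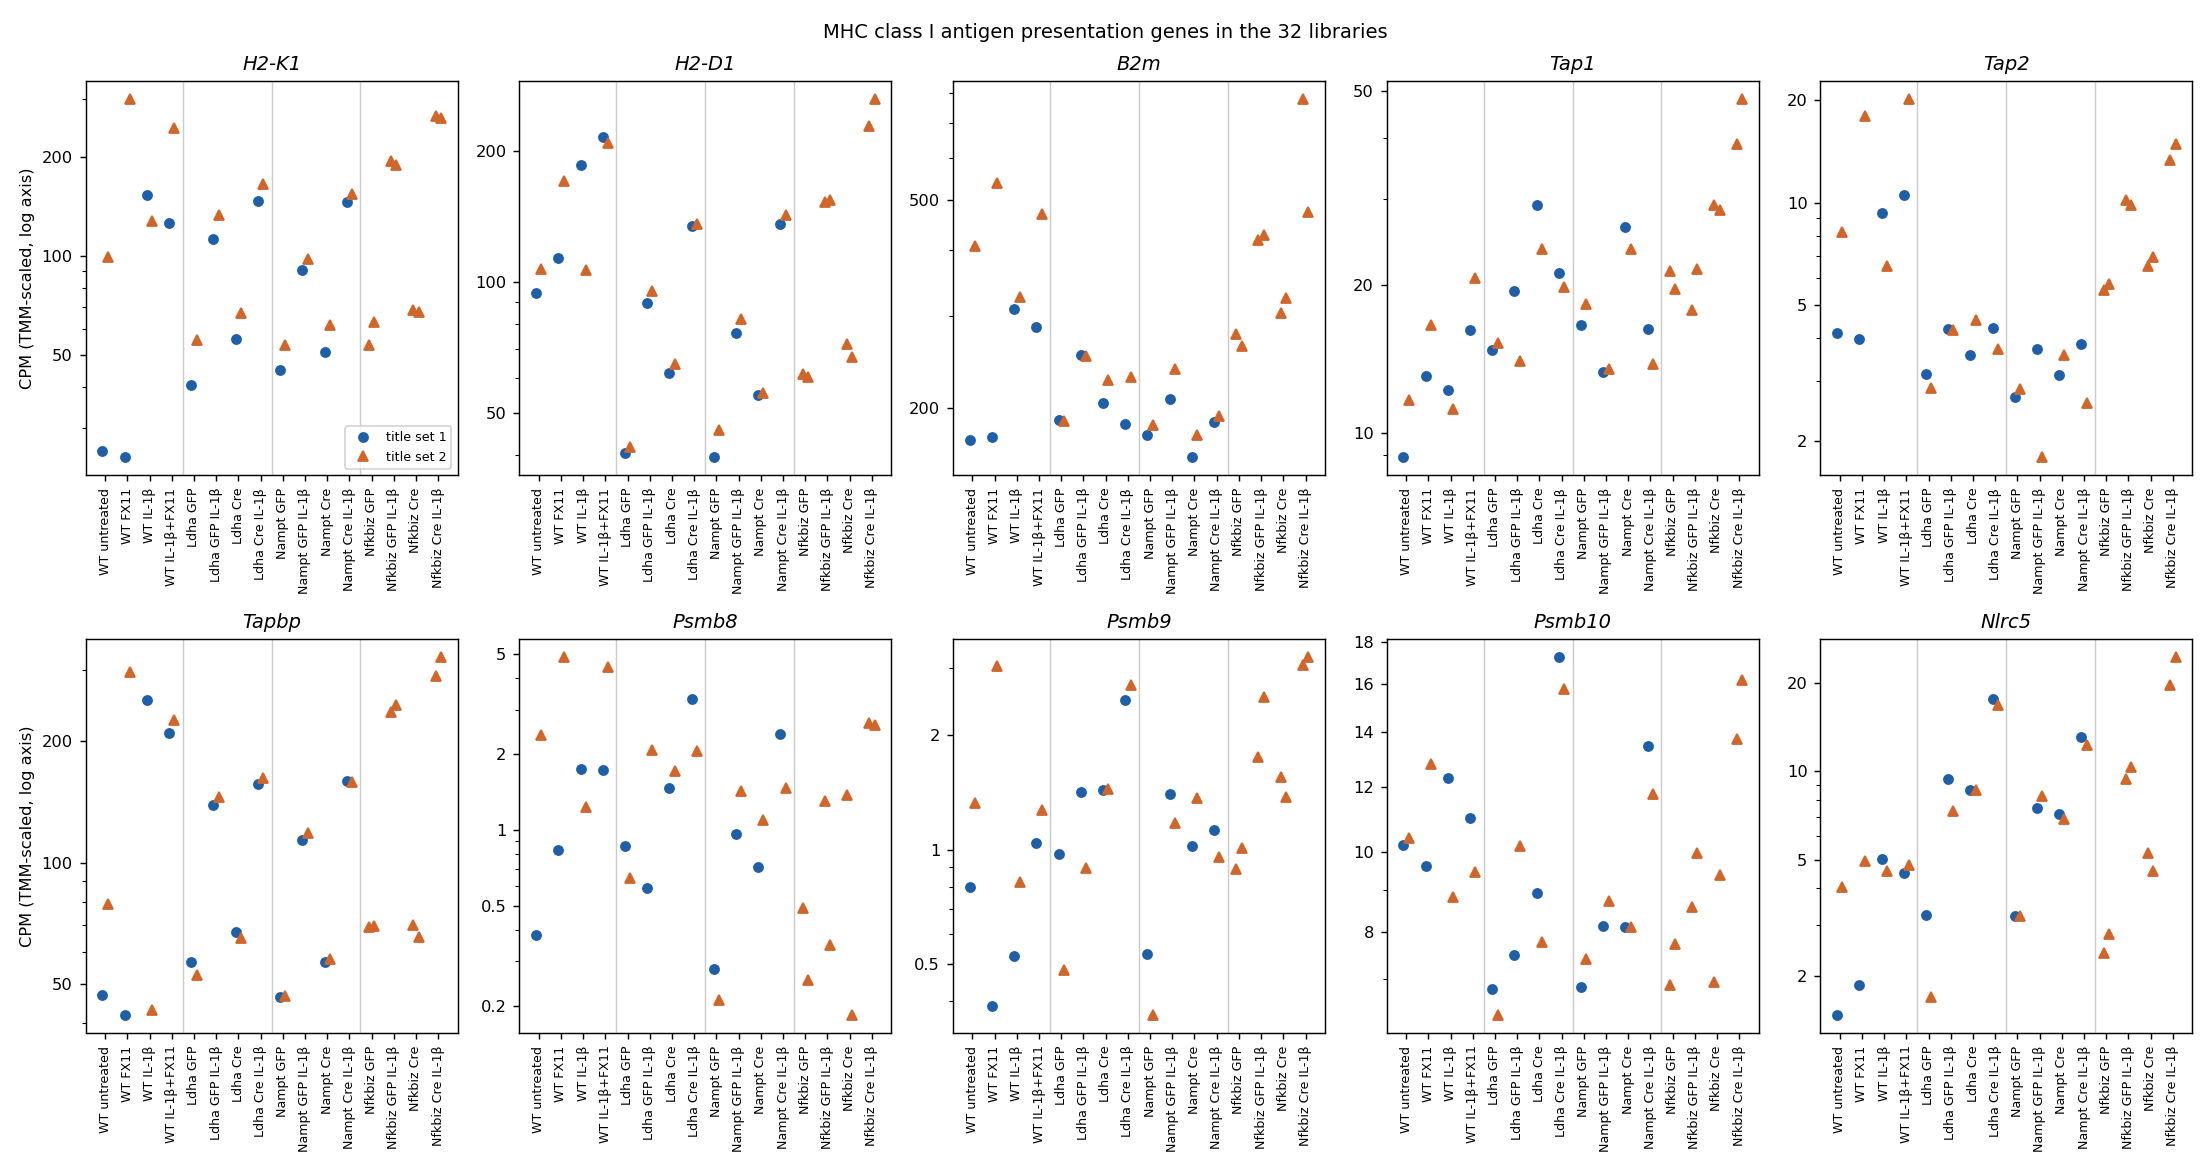
Level of each of the 10 genes in all 32 libraries, as TMM-scaled CPM on log axes, with the condition on the x axis and the title set of the library as circle (set 1) or triangle (set 2). H2-K1, H2-D1, Tapbp and Nlrc5 step up with IL-1β in each of the 3 virus-treated lines, while B2m stays between 160.9 and 778.2 CPM and Psmb8 between 0.184 and 4.87 CPM.

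Library totals ran from 15830658 to 39959888 counts, of which the members took 6923 to 38448. The second Nfkbiz f/f Cre library with IL-1β had the highest share of counts on the gene Gm26917, 11.865%, where the lowest was 5.135%. It had the lowest mitochondrial share, 0.538%, where the highest was 2.186%. The same library had the highest H2-D1, Tap1, Tapbp, Psmb9 and Nlrc5 of all libraries. Whether its quality affects these values was not tested. The deleted genes followed their labels. Under IL-1β, Ldha fell from 1557 and 1547 CPM in GFP cultures to 81.3 and 72.89 in Cre cultures, Nampt from 67.35 and 68.41 to 5.701 and 4.63, and Nfkbiz from 235.1 and 228.8 to 29.48 and 32.3. Without IL-1β, Ldha fell from 918 and 868.8 to 118.2 and 111.1 CPM and Nampt from 59.51 and 54.55 to 6.719 and 6.861. Nfkbiz fell less there, from 16.11 and 16.96 to 9.647 and 8.28 CPM. Among wild-type libraries, 2 of title set 2 went against their labels: Mmp3 and Lcn2, both IL-1β-induced genes in the other libraries, were at 0.784 and 17.17 CPM in the one labelled IL-1β and at 2016 and 12540 CPM in the one labelled FX11. These 2 are in no comparison of the floxed lines. Chondrocyte markers summed to 13910 to 85090 CPM in the virus-treated libraries, so the defining markers of cartilage were present. There 8 macrophage and leukocyte markers summed to 14.19 to 56.76 CPM and 6 lymphocyte markers to 1.311 to 3.881. Markers of fibroblasts and of the perichondrium, the tissue around cartilage, summed to far more, 692.6 to 5537 CPM over 6 genes. In wild-type libraries, macrophage and leukocyte markers summed to 94.42 to 138.4 CPM in set 1 and 146.6 to 253 in set 2.

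IL-1β raised the heavy chains, tapasin and Nlrc5 in GFP cultures of all 3 lines, by 1.89-fold to 3.84-fold. H2-K1, H2-D1, B2m, Tapbp and Nlrc5 passed the test in each line, Psmb9 in 2 lines, Psmb8 and Tap2 in 1 line each, and Psmb10 in none. Tap1 fell in Nampt f/f and otherwise did not pass. A gene was called at an adjusted p of 0.05 or less by edgeR's quasi-likelihood test with Benjamini-Hochberg adjustment over all genes tested. Called members numbered 5 of 10 in Ldha f/f, where 27.9% of all genes were called, 8 of 10 in Nampt f/f (35% of all genes) and 7 of 10 in Nfkbiz f/f (26.8%). With 1 library left out at a time the count in Nampt f/f was 5 to 6, the 5 without the set 1 GFP library, where 27.3% of all genes were called. The members' median log2 fold changes were 0.69, 0.94 and 1.16, beside a median of 0.00 for all genes in each line.

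H2-K1, a classical heavy chain, went from 40.64 and 55.5 CPM without IL-1β to 112.7 and 133.4 CPM with it in Ldha f/f. In Nampt f/f it went from 45 and 53.71 to 90.55 and 97.74 CPM, and in Nfkbiz f/f from 53.82 and 63.07 to 193.9 and 189.6 CPM. Both IL-1β libraries lay above both controls in every line. The log2 fold changes were 1.36 ± 0.15 (SE), 0.96 ± 0.11 and 1.73 ± 0.10, with adjusted p of 0.00013, 4.97e-05 and 8.95e-08. H2-D1, the other classical heavy chain of this strain, rose from 40.47 and 41.77 to 89.4 and 95.3 CPM in Ldha f/f, from 39.49 and 45.51 to 76.09 and 82.06 in Nampt f/f and from 61.25 and 60.41 to 152.8 and 154.4 in Nfkbiz f/f. Its replicates were closer than those of H2-K1, and its log2 fold changes were 1.16 ± 0.07, 0.92 ± 0.08 and 1.35 ± 0.10 (highest adjusted p 9.59e-06).

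B2m, the light chain and the most abundant member, moved less. It was at 189.5 and 188.4 CPM and then 252.1 and 250.8 CPM in Ldha f/f, 177.6 and 185.4 and then 207.5 and 236.8 in Nampt f/f, and 276.6 and 262.6 and then 418.3 and 428.4 in Nfkbiz f/f. The groups did not overlap in any line, with log2 fold changes of 0.41 ± 0.10, 0.31 ± 0.08 and 0.67 ± 0.17 and adjusted p of 0.0118, 0.0105 and 0.0124. These calls are fragile: with 1 library left out at a time B2m was called in 2 of 4 fits in Ldha f/f and in Nampt f/f and in 0 of 4 in Nfkbiz f/f, where its adjusted p reached 0.0768. Its log2 fold change in those fits stayed between 0.21 and 0.70 over the 3 lines.

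The peptide transporter did not follow the heavy chains. Tap1 was at 14.73 and 15.26 CPM without and 19.53 and 14.02 CPM with IL-1β in Ldha f/f, and at 21.41 and 19.7 and then 17.84 and 21.65 CPM in Nfkbiz f/f, where the groups overlapped in both lines. In Nampt f/f it fell from 16.61 and 18.34 to 13.34 and 13.52 CPM, by 0.35 ± 0.12 on the log2 scale (adjusted p = 0.0434), a call lost in each of the 4 fits that left out 1 library (adjusted p up to 0.185). Tap2 rose from 5.564 and 5.78 to 10.17 and 9.824 CPM in Nfkbiz f/f, by 0.83 ± 0.16 (adjusted p = 0.00184). In the other lines Tap2 differed by 0.49 ± 0.21 and 0.06 ± 0.34 and did not pass.

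Tapasin, by contrast with the transporter it docks to, had the smallest p-value of the list in all 3 lines. Tapbp went from 56.92 and 52.59 to 138.8 and 145.1 CPM in Ldha f/f, from 46.47 and 46.88 to 113.9 and 118.4 in Nampt f/f and from 69.49 and 69.57 to 235.5 and 245.1 in Nfkbiz f/f. The log2 fold changes were 1.37 ± 0.07, 1.34 ± 0.06 and 1.80 ± 0.10, with adjusted p of 7.29e-07, 5.56e-08 and 4.28e-08. Its exons overlap Gm19412 and Zbtb22, as given above.

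Nlrc5, the class I transactivator, went from 3.239 and 1.695 to 9.416 and 7.338 CPM in Ldha f/f, from 3.221 and 3.206 to 7.492 and 8.212 in Nampt f/f and from 2.404 and 2.784 to 9.42 and 10.35 in Nfkbiz f/f. Every IL-1β library was above every control of its line, and the log2 fold changes were 1.74 ± 0.25, 1.31 ± 0.15 and 1.94 ± 0.19 (adjusted p of 0.0006, 6.48e-05 and 9.33e-06). The immunoproteasome was uneven. Psmb8 went from 0.279 and 0.2102 to 0.9616 and 1.42 CPM in Nampt f/f (2.22 ± 0.53, adjusted p = 0.00823) and did not pass in the other lines. Psmb9 passed in Nampt f/f (1.49 ± 0.44, adjusted p = 0.0222) and Nfkbiz f/f (1.18 ± 0.35, adjusted p = 0.0243), each in only 1 of the 4 fits that left out 1 library. Psmb10 differed by 0.41 ± 0.17, 0.26 ± 0.14 and 0.36 ± 0.19 and passed in no line.

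**Figure D2:**
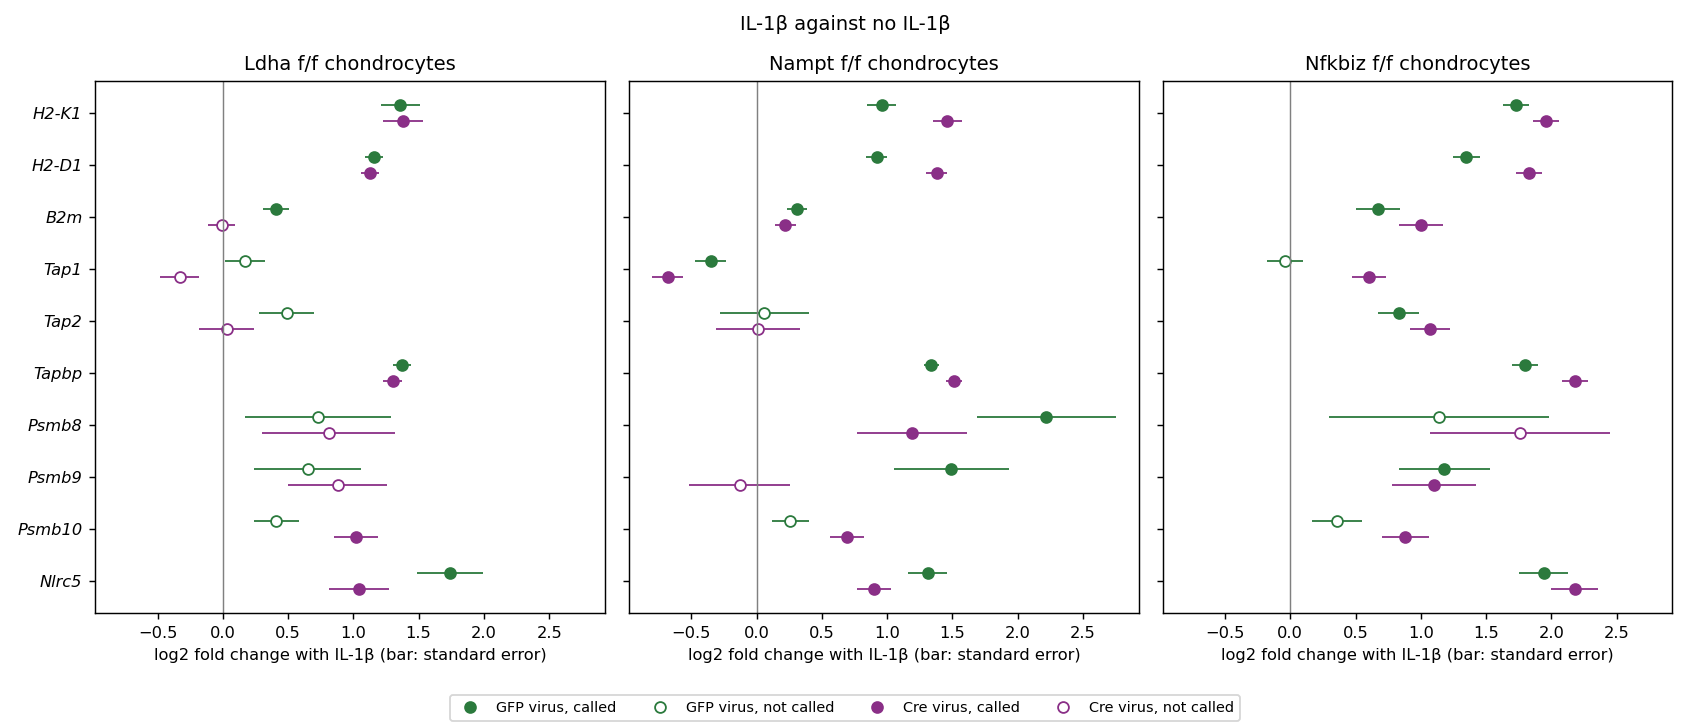
Log2 fold change with IL-1β for each of the 10 genes in GFP cultures (green) and Cre cultures (purple) of the 3 floxed lines, with standard errors as bars and filled points for genes called at an adjusted p of 0.05 or less. H2-K1, H2-D1, Tapbp and Nlrc5 are filled in every line and virus, from 0.90 to 2.18, while Tap1 lies between -0.68 and 0.60.

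Macrophage and leukocyte markers moved with IL-1β too. Their summed level in GFP cultures was 19.52 to 20.42 CPM without and 33.12 to 34.67 CPM with IL-1β in Ldha f/f, 14.19 to 16.69 and 25.25 to 29.69 in Nampt f/f, and 22.49 to 24.79 and 48.6 to 51.76 in Nfkbiz f/f. Cd68, a macrophage lysosomal protein, went from 7.022 and 7.426 to 13.8 and 16.23 CPM in Ldha f/f, and 3 of 6, 2 of 4 and 2 of 5 tested markers rose. The part of such cells in the class I values was not tested. All 8 chondrocyte markers fell in each line.

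H2-K1 and Tapbp responded more to IL-1β in Nfkbiz f/f than in the other lines. In a fit over the 24 libraries of the 3 lines with the title set as a term, the IL-1β effect in Nfkbiz f/f GFP cultures exceeded the mean of the other lines by 0.56 ± 0.10 (log2) for H2-K1 (adjusted p = 0.00135) and by 0.44 ± 0.09 for Tapbp (adjusted p = 0.00273), and these 2 of 10 members were called where 4.4% of all genes were. H2-D1 differed by 0.30 ± 0.09 (adjusted p = 0.0613). Both calls held in each of 12 fits that left out 1 library. Nfkbiz f/f libraries all belong to title set 2, while the other lines have 1 library per condition in each set. Line and set are therefore only partly separable, and without the set term H2-K1 no longer passed edgeR's test (adjusted p = 0.0759). Summed fibroblast and perichondrial markers also differed between lines. In GFP cultures with IL-1β they were at 692.6 to 713.7 CPM in Nfkbiz f/f, 4062 to 4200 in Ldha f/f and 3524 to 3574 in Nampt f/f. Without IL-1β they were at 944.4 to 1145, 5406 to 5537 and 4566 to 4706 CPM. Their part in the line differences was not tested.

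In Cre cultures IL-1β still raised H2-K1, H2-D1, Tapbp and Nlrc5 in each line. The members called were 5 of 10 in Ldha f/f (35.9% of all genes), 8 of 10 in Nampt f/f (43.9%) and 9 of 10 in Nfkbiz f/f (22.1%). Psmb10, which passed in no GFP comparison, passed in all 3 Cre comparisons: it went from 8.925 and 7.78 to 17.27 and 15.76 CPM in Ldha f/f (1.02 ± 0.17, adjusted p = 0.00118), from 8.11 and 8.108 to 13.44 and 11.76 in Nampt f/f (0.69 ± 0.13, adjusted p = 0.00158) and from 6.95 and 9.384 to 13.71 and 16.17 in Nfkbiz f/f (0.88 ± 0.18, adjusted p = 0.00482). The difference between its Cre and GFP responses did not itself pass in any line (0.61 ± 0.24, 0.42 ± 0.19 and 0.52 ± 0.26, adjusted p of 0.15, 0.151 and 0.33).

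Tap1 took opposite directions between lines in the Cre cultures. It fell from 26.35 and 23.74 to 16.33 and 13.81 CPM in Nampt f/f, by 0.68 ± 0.12 on the log2 scale (adjusted p = 0.000679). It rose from 29.22 and 28.52 to 38.84 and 48.08 CPM in Nfkbiz f/f, by 0.60 ± 0.13 (adjusted p = 0.00658). In Ldha f/f it went from 29.19 and 23.7 to 21.23 and 19.83 CPM, a difference of -0.33 ± 0.15 that passed only with the title set as a block (adjusted p = 0.118 without and 0.0213 with it). The difference between lines in the IL-1β response of Cre cultures was not tested. B2m was flat in Ldha f/f Cre cultures, at 204.1 and 226 and then 186.5 and 228.9 CPM, with overlapping groups.

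Without IL-1β, Cre cultures differed from GFP cultures mainly in Nlrc5, Tap1 and H2-D1, and in Ldha f/f and Nampt f/f. Ldha f/f Cre cultures had 3 of 10 members called, all higher, where 5.52% of all genes were called. Nampt f/f Cre cultures had 5 of 10, all higher, where 14.4% of genes were. In Nfkbiz f/f edgeR's quasi-likelihood test called 0 of 10 members where 0.26% of genes were called, with 2 of 10 at an unadjusted p under 0.05 and 0 by DESeq2 and voom. In that comparison Nfkbiz RNA itself fell less than the deleted gene of the other lines, as given above.

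Nlrc5 was at 3.239 and 1.695 CPM in GFP and 8.627 and 8.595 CPM in Cre cultures of Ldha f/f, and at 3.221 and 3.206 against 7.165 and 6.861 CPM in Nampt f/f. The Cre libraries lay above the GFP libraries throughout, by 1.75 ± 0.25 (adjusted p = 0.0038) and 1.12 ± 0.15 (adjusted p = 0.000566) on the log2 scale. In Nfkbiz f/f it was at 2.404 and 2.784 against 5.258 and 4.554 CPM, again without overlap, but 0.90 ± 0.20 did not pass across all genes (adjusted p = 0.165).

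H2-D1 was at 61.79 and 64.87 CPM in Cre cultures of Ldha f/f against 40.47 and 41.77 in GFP cultures (0.60 ± 0.07, adjusted p = 0.00153), and at 54.8 and 55.59 against 39.49 and 45.51 in Nampt f/f (0.37 ± 0.08, adjusted p = 0.0116). Tap1 was at 29.19 and 23.7 against 14.73 and 15.26 CPM in Ldha f/f (0.80 ± 0.15, adjusted p = 0.0145) and at 26.35 and 23.74 against 16.61 and 18.34 in Nampt f/f (0.52 ± 0.12, adjusted p = 0.0124). Cre libraries were higher without overlap in each case. Tapbp (0.29 ± 0.06, adjusted p = 0.0104) and Psmb8 (1.78 ± 0.53, adjusted p = 0.0458) also rose in Nampt f/f. With 1 library left out at a time Tap1 was called in 2 of 4 fits in each line, H2-D1 and Tapbp of Nampt f/f in 2 of 4, and Psmb8 in 0 of 4 (adjusted p up to 0.216). In Nampt f/f the count went from 5 to 1 without the set 1 GFP library (8.74% of all genes), to 3 without the set 1 Cre library (8.9%) and to 2 without the set 2 Cre library (8.27%).

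The 2 title sets pair the libraries of Ldha f/f and Nampt f/f, and with the set as a block H2-K1 was also called higher without IL-1β, at 0.35 in Ldha f/f (adjusted p = 0.00219) and 0.19 in Nampt f/f (adjusted p = 0.0156). The block added Tapbp in Ldha f/f (0.26, adjusted p = 0.0121) and Psmb9 in Nampt f/f (1.33, adjusted p = 0.0414), which brought the members called in Ldha f/f from 3 to 5, while all genes called went from 5.52% to 12.6%.

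Under IL-1β the Cre cultures of every line had higher H2-D1, Psmb10 and Nlrc5 than the GFP cultures, by 1.48-fold to 2.21-fold. No member was called lower in these fits, which had no block. The members called were 4 of 10 in Ldha f/f (34% of all genes), 5 of 10 in Nampt f/f (48.4%) and 8 of 10 in Nfkbiz f/f (17.4%). Without a block, the shares in Ldha f/f and Nampt f/f are near those of all genes. With the title set as a block, 9 of 10 members were called in Ldha f/f against 44.8% of all genes, with B2m called lower (-0.26, adjusted p = 0.00422). In Nampt f/f the block added only B2m, also lower (-0.2, adjusted p = 0.000255), and 58.3% of all genes were called. The members' median log2 fold changes were 0.47, 0.53 and 0.60, with all genes at -0.02, -0.03 and -0.01. This comparison and that of IL-1β in GFP cultures share the GFP libraries with IL-1β.

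Nlrc5 under IL-1β was at 17.6 and 16.87 CPM in Ldha f/f Cre cultures against 9.416 and 7.338 in GFP cultures, at 13.04 and 12.26 against 7.492 and 8.212 in Nampt f/f, and at 19.64 and 24.56 against 9.42 and 10.35 in Nfkbiz f/f. The groups were apart in each line, with log2 fold changes of 1.06 ± 0.23, 0.71 ± 0.14 and 1.14 ± 0.17 (adjusted p of 0.00534, 0.00147 and 0.000426). Psmb10, an immunoproteasome subunit, was at 17.27 and 15.76 against 7.49 and 10.16 CPM in Ldha f/f, at 13.44 and 11.76 against 8.134 and 8.706 in Nampt f/f and at 13.71 and 16.17 against 8.568 and 9.955 in Nfkbiz f/f. It was higher in every Cre library, by 0.94 ± 0.17, 0.61 ± 0.14 and 0.67 ± 0.18 (adjusted p of 0.00206, 0.0037 and 0.0218).

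H2-D1 reached 134.2 and 135.8 CPM in Cre cultures of Ldha f/f against 89.4 and 95.3 in GFP cultures, 136.2 and 142.2 against 76.09 and 82.06 in Nampt f/f, and 227.9 and 263.4 against 152.8 and 154.4 in Nfkbiz f/f. No Cre library overlapped a GFP library, and the log2 fold changes were 0.57 ± 0.07, 0.83 ± 0.08 and 0.66 ± 0.10 (adjusted p of 0.000202, 9.72e-06 and 0.00048). H2-K1 was at 147.2 and 165.7 against 112.7 and 133.4 CPM in Ldha f/f, at 146 and 154.5 against 90.55 and 97.74 in Nampt f/f, and at 265.7 and 263 against 193.9 and 189.6 in Nfkbiz f/f. Its differences of 0.69 ± 0.10 in Nampt f/f (adjusted p = 0.000276) and 0.45 ± 0.10 in Nfkbiz f/f (adjusted p = 0.00724) passed, and 0.37 ± 0.15 in Ldha f/f passed only with the title set as a block (adjusted p = 0.0877 without and 0.000171 with it).

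Tap1 and B2m were the members called for a different Cre effect in Nfkbiz f/f, by a test below that called 37.4% of all genes. Under IL-1β Tap1 was at 38.84 and 48.08 CPM in Nfkbiz f/f Cre cultures against 17.84 and 21.65 in GFP cultures, a log2 fold change of 1.12 ± 0.13 (adjusted p = 8.9e-05). The second of these Cre libraries is the one with the extreme Gm26917 and mitochondrial shares. With 1 library left out at a time, Tap1 differed by 0.96 to 1.27. In Ldha f/f it was at 21.23 and 19.83 against 19.53 and 14.02 CPM (0.31 ± 0.15) and in Nampt f/f at 16.33 and 13.81 against 13.34 and 13.52 (0.19 ± 0.12). Neither of the latter passed, although 0.31 in Ldha f/f did with the block (adjusted p = 0.0352). B2m was at 778.2 and 473.9 against 418.3 and 428.4 CPM in Nfkbiz f/f (0.55 ± 0.17, adjusted p = 0.0463), and without the first of these libraries its log2 fold change was 0.14. In Ldha f/f it was at 186.5 and 228.9 against 252.1 and 250.8 CPM (-0.26 ± 0.10, adjusted p = 0.0729, or 0.00422 with the block) and in Nampt f/f at 187.9 and 192.8 against 207.5 and 236.8 (-0.21 ± 0.08, adjusted p = 0.0508, or 0.000255 with the block).

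The test of that difference compared the Cre effect under IL-1β between lines, and the members' share called was below that of all genes. The Cre effect under IL-1β in Nfkbiz f/f exceeded the mean of Ldha f/f and Nampt f/f by 0.82 ± 0.16 for B2m (adjusted p = 0.000223) and by 0.91 ± 0.16 for Tap1 (adjusted p = 8.97e-05), 2 of 10 members where 37.4% of all genes were called. Both passed in each of 12 fits that left out 1 library, B2m with differences from 0.43 to 1.13 and Tap1 from 0.74 to 1.07. H2-K1 and H2-D1 were -0.04 ± 0.10 and 0.00 ± 0.08 apart. The Cre effect under IL-1β in the Ldha line against the Nampt line differed for 0 of 10 members by edgeR (0.538% of all genes), with 4 of 10 at an unadjusted p under 0.05, 2 by voom and 0 by DESeq2. H2-K1 was -0.31 ± 0.11 apart (Ldha minus Nampt) and Psmb9 1.47 ± 0.50.

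Of the other members under IL-1β, Tapbp rose in Nampt f/f (0.46 ± 0.06, adjusted p = 9.01e-05) and Nfkbiz f/f (0.33 ± 0.09, adjusted p = 0.0292), and in Ldha f/f it differed by 0.19 ± 0.07 (adjusted p = 0.0679, or 0.0189 with the block). Psmb9 was at 2.481 and 2.711 against 1.418 and 0.8937 CPM in Ldha f/f (1.16 ± 0.38, adjusted p = 0.0406), called in 0 of 4 fits that left out 1 library. Tap2 was at 13.32 and 14.87 against 10.17 and 9.824 CPM in Nfkbiz f/f (0.48 ± 0.15, adjusted p = 0.046). Psmb8 was 1.11 ± 0.52, 0.75 ± 0.43 and 1.68 ± 0.69 higher and passed in no line (adjusted p = 0.133 in Ldha f/f, or 0.043 with the block). In Ldha f/f the block raised the count of members called from 4 to 9, and that of all genes from 34% to 44.8%. In Nfkbiz f/f, leaving out either GFP library with IL-1β brought the count from 8 to 3 (8.46% and 9.23% of all genes) and leaving out the second Cre library with IL-1β to 5 (14%), and B2m, Tap2, Tapbp and Psmb10 were each called in 1 of 4 such fits.

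**Figure D3:**
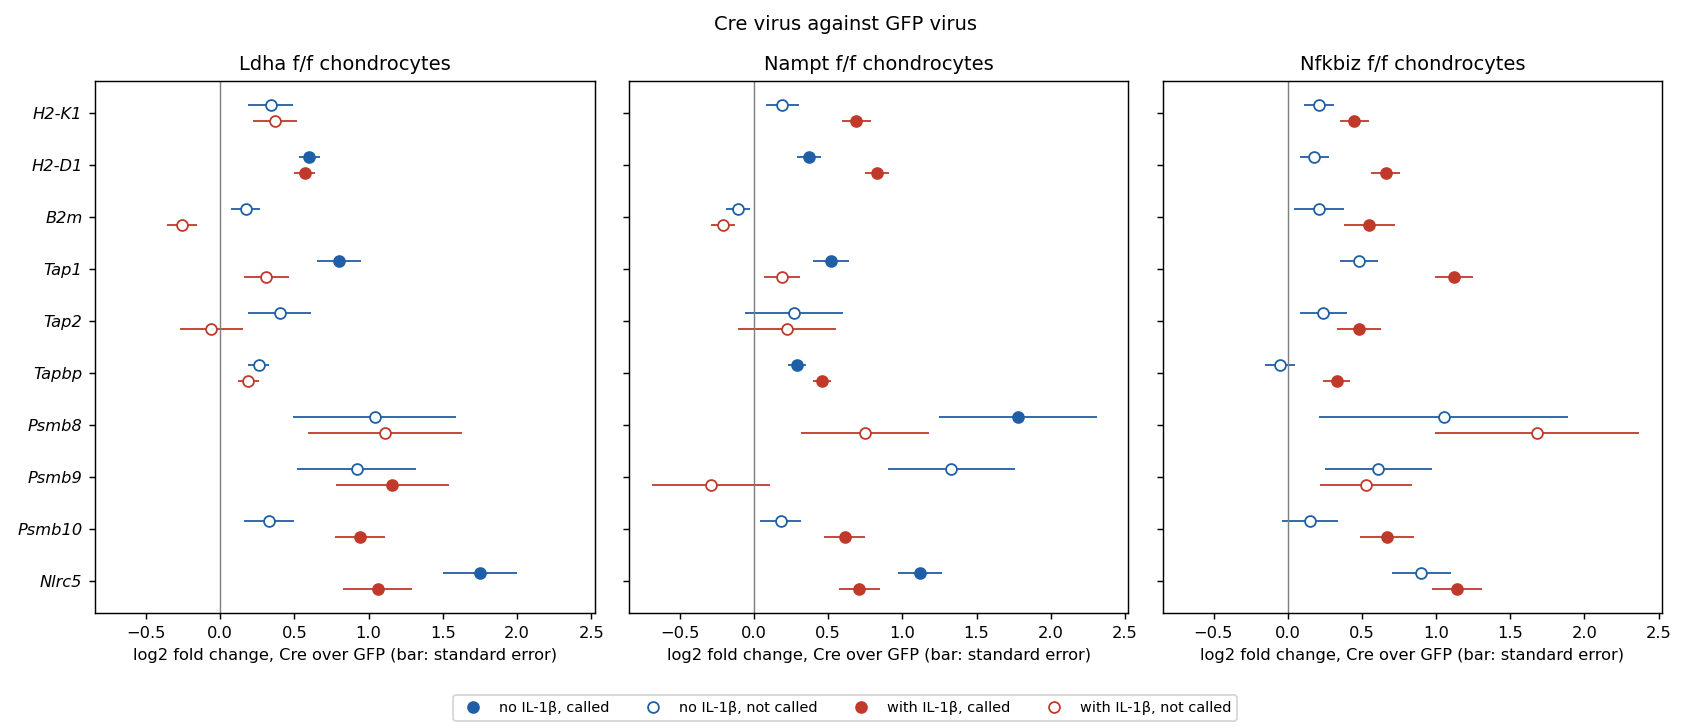
Log2 fold change of Cre over GFP cultures for each of the 10 genes without IL-1β (blue) and with IL-1β (red) in the 3 lines, with standard errors as bars and filled points for called genes. Nlrc5 lies between 0.71 and 1.75 throughout, and Tap1 under IL-1β is at 1.12 in Nfkbiz f/f against 0.31 and 0.19 in Ldha f/f and Nampt f/f.

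The interaction of Cre and IL-1β asks whether the IL-1β response differed between Cre and GFP cultures. In Nampt f/f, 2 of 10 members were called where 22% of all genes were: H2-K1 (0.50 ± 0.15, adjusted p = 0.0346) and H2-D1 (0.46 ± 0.11, adjusted p = 0.0158) responded more in Cre cultures. With 1 of the 8 libraries left out at a time, H2-K1 was called in 2 of 8 fits and H2-D1 in 4 of 8, with differences down to 0.30 and 0.29, both in the fit without the set 2 GFP library. Neither was called there, nor without the set 1 Cre, the set 1 GFP with IL-1β or the set 2 Cre with IL-1β library. In Ldha f/f 0 of 10 were called by edgeR (11.5% of all genes), with 3 of 10 at an unadjusted p under 0.05, 1 by DESeq2 and 0 by voom. With the title set as a block, B2m (-0.43, adjusted p = 0.0035) and Tap1 (-0.49, adjusted p = 0.0342) were called there, where 21.2% of all genes were. Tap1 was at -0.33 ± 0.15 with IL-1β in Cre and 0.17 ± 0.15 in GFP cultures, and B2m at -0.01 ± 0.10 and 0.41 ± 0.10. In Nfkbiz f/f 0 of 10 were called by edgeR (5.19% of all genes), with 3 of 10 at an unadjusted p under 0.05 and 1 each by DESeq2 and voom. Tap1 there differed by 0.64 ± 0.19 (adjusted p = 0.077), and Nlrc5 by 0.24 ± 0.26, against -0.70 ± 0.33 in Ldha f/f and -0.41 ± 0.20 in Nampt f/f.

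Under Cre and IL-1β, H2-D1, Psmb10 and Nlrc5 went the other way from Lcn2, a single IL-1β target. Cd74, which IL-1β also raised, was higher like these members, as given below. Lcn2, an acute-phase gene singled out after its values were seen, fell in the same libraries from 3490 and 3479 to 1545 and 1684 CPM in Ldha f/f, from 2831 and 2923 to 1469 and 1530 in Nampt f/f and from 7338 and 7528 to 322.5 and 224.4 in Nfkbiz f/f, while H2-D1, Psmb10 and Nlrc5 were higher in all 3.

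Other genes of the pathway were taken as lists. Of all genes, IL-1β in GFP cultures raised 2307 and lowered 2117 of 15880 in Ldha f/f. It raised 2857 and lowered 2785 of 16136 in Nampt f/f, and 2330 and 1790 of 15356 in Nfkbiz f/f. Under IL-1β, Cre cultures had 2685 of all genes higher and 2707 lower in Ldha f/f. They had 4026 and 3782 in Nampt f/f, and 1253 and 1413 in Nfkbiz f/f. Among other class I heavy chains, IL-1β raised 8 of 11 tested in Ldha f/f GFP cultures, 8 of 11 in Nampt f/f and 9 of 12 in Nfkbiz f/f, and lowered none by edgeR. H2-Q7 went from 1.949 and 2.179 to 13.24 and 12.37 CPM in Ldha f/f, and H2-Q10 rose by 4.31 ± 0.32 there and by 4.08 ± 0.27 in Nfkbiz f/f. Under IL-1β, Cre cultures split the list: 4 higher and 2 lower in Ldha f/f, 5 and 2 in Nampt f/f, and 2 and 2 in Nfkbiz f/f. H2-Q4 was higher in all 3 lines (0.62 ± 0.14, 1.11 ± 0.16 and 1.37 ± 0.18) and H2-Q10 lower in all 3 (-1.32 ± 0.26, -1.35 ± 0.37 and -3.21 ± 0.25). H2-T23, a nonclassical heavy chain, was higher in Ldha f/f (1.01 ± 0.17) and lower in Nfkbiz f/f (-1.41 ± 0.24). Because these genes share sequence, their counts may trade reads.

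The constitutive proteasome and its activators were counted beside the immunoproteasome. Of 19 subunits and activators, IL-1β in GFP cultures raised 3 in the Ldha line, 1 in the Nampt line and 2 in the Nfkbiz line, among them Psme1, a subunit of an interferon-inducible activator, in each (0.55 ± 0.12, 0.39 ± 0.12 and 0.52 ± 0.13). Under IL-1β, 13 were higher and 0 lower in Cre cultures of Ldha f/f and 14 and 0 in Nampt f/f, with Psma7 at 0.72 ± 0.09 and 0.96 ± 0.06. In Nfkbiz f/f 1 was higher, Psme1 (0.54 ± 0.13), and 1 lower, Psmb5 (-0.43 ± 0.13), whose catalytic place PSMB8 can take. The list medians were 0.31, 0.48 and -0.12. Of 11 loading and trimming factors, IL-1β in GFP cultures raised 1 and lowered 4 in Ldha f/f, 1 and 7 in Nampt f/f, and 1 and 2 in Nfkbiz f/f. Erap1, the peptidase that trims class I peptides, was the one that rose, by 0.50 ± 0.16, 0.56 ± 0.11 and 0.60 ± 0.12. Under IL-1β, Calr and Tapbpl, a tapasin relative, were higher in Cre cultures of Ldha f/f (0.44 ± 0.07 and 0.45 ± 0.13) and Nampt f/f (0.71 ± 0.06 and 1.02 ± 0.12), in lists with 2 higher and 1 lower and 5 higher and 1 lower. In Nfkbiz f/f 0 were higher and 1 lower.

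Of the regulators of class I genes, IL-1β in GFP cultures raised 5 of 19 in Ldha f/f, 7 of 19 in Nampt f/f and 6 of 18 in Nfkbiz f/f and lowered 0, 1 and 0, and the others did not pass. Of all genes it raised 2307 of 15880, 2857 of 16136 and 2330 of 15356. Those raised included the NF-κB subunits Relb (1.18 ± 0.10, 1.24 ± 0.09 and 1.38 ± 0.11) and Nfkb2. Under IL-1β, Irf1, an interferon-regulated activator of class I genes, was higher in Cre cultures by 0.59 ± 0.10, 0.83 ± 0.12 and 0.79 ± 0.12 and Nfkb1 lower by -0.25 ± 0.07, -0.24 ± 0.07 and -0.37 ± 0.09. Irf8 went from 0.5618 and 0.3763 to 3.936 and 3.866 CPM in Ldha f/f and from 0.5209 and 0.6792 to 5.541 and 5.423 in Nampt f/f. The regulator counts were 6 higher and 2 lower of 19, 6 and 4 of 19, and 2 and 3 of 18.

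Interferon genes themselves, Ifnb1, Ifng, Ifna4, Ifnl2 and Ifnl3, were under the minimum of 1 CPM in all libraries. Of the receptor and kinase genes, IL-1β raised 5, 5 and 6 of 7 and lowered 1, 0 and 0 in GFP cultures, and under IL-1β the Cre cultures had higher Ifngr2, a subunit of the type II interferon receptor, in all 3 lines (0.34 ± 0.08, 0.57 ± 0.09 and 0.33 ± 0.10) and lower Jak2 (-0.43 ± 0.10, -0.49 ± 0.10 and -1.04 ± 0.10), in lists of 2 higher and 2 lower, 3 and 2, and 1 and 4. Interferon-stimulated genes were counted on their own. IL-1β in GFP cultures raised 9 of 16 in Ldha f/f, 3 of 14 in Nampt f/f and 4 of 12 in Nfkbiz f/f and lowered Ifit2 in each. Without IL-1β, Cre cultures had 11 of 16 higher in Ldha f/f (list median 1.46), 2 of 14 in Nampt f/f (0.73) and 0 of 12 in Nfkbiz f/f (0.54). Of all genes, 545 of 15880, 1340 of 16136 and 17 of 15356 were higher in that comparison. Under IL-1β the counts were 4 higher and 1 lower, 5 and 1, and 2 and 0. Bst2 was higher in Ldha f/f (1.08 ± 0.19) and Nampt f/f (1.30 ± 0.13), and Cxcl10 was lower in Nampt f/f (-1.10 ± 0.21) and higher in Nfkbiz f/f (1.24 ± 0.20).

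Class II genes gave mixed values. Cd74, the invariant chain of class II, went from 28.46 and 28.74 to 75.44 and 85.39 CPM under Cre and IL-1β in Ldha f/f, from 26.2 and 26.98 to 87.18 and 88.94 in Nampt f/f and from 62.98 and 67.03 to 143.5 and 151.3 in Nfkbiz f/f. H2-Ab1, a class II chain, fell in the same libraries (-0.93 ± 0.24, -0.85 ± 0.28 and -2.10 ± 0.17). The class II list had 2 higher and 2 lower of 7 in Ldha f/f, 3 and 2 of 6 in Nampt f/f and 1 and 1 of 7 in Nfkbiz f/f, while IL-1β in GFP cultures gave 4 and 0, 2 and 1, and 3 and 0. A further list held surface ligands read by immune cells, and it mixes inhibitory with activating ones. Of these, Cd47 rose with IL-1β in each GFP line (1.07 ± 0.08, 1.07 ± 0.07 and 1.33 ± 0.13). It was lower in Cre cultures under IL-1β in Nampt f/f and Nfkbiz f/f. The ligand list had 2, 3 and 2 of 5 higher with IL-1β and, with Cre under IL-1β, 1 higher and 0 lower, 2 and 1, and 0 and 1.

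**Figure D4:**
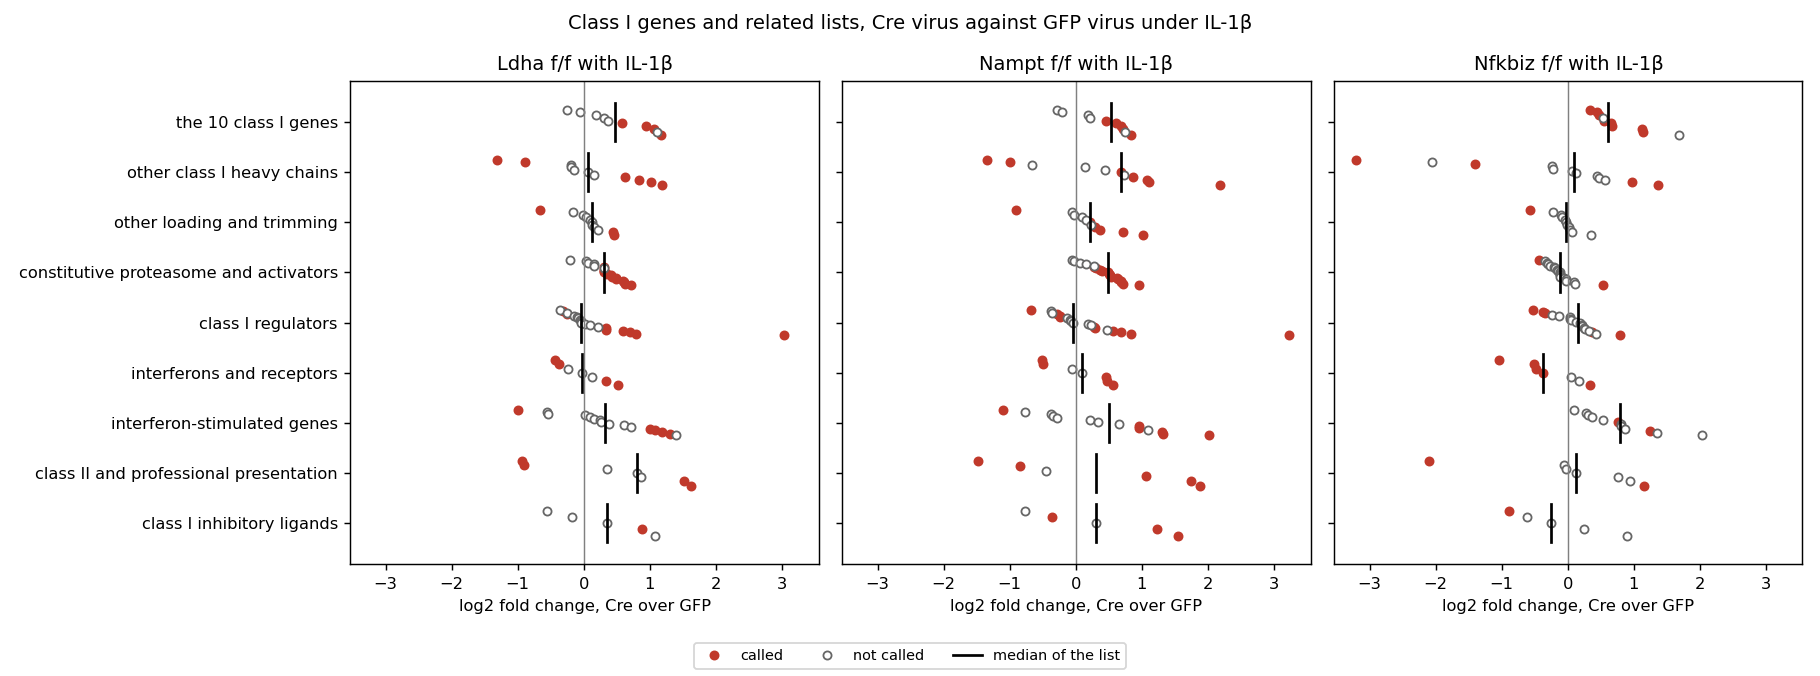
Log2 fold change of Cre over GFP cultures under IL-1β for every tested gene of the 10 class I genes and of 8 related lists, with called genes filled and the list median as a bar, in the 3 lines. The constitutive proteasome has its median at 0.31 and 0.48 in Ldha f/f and Nampt f/f and at -0.12 in Nfkbiz f/f. The 10 class I genes have theirs at 0.47, 0.53 and 0.60. The list marked as inhibitory ligands also holds activating ones.

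Cell-type markers moved with Cre under IL-1β as well. Chondrocyte markers were lower for 7, 6 and 1 of 8. Summed fibroblast and perichondrial markers were at 4062 to 4200 CPM in GFP and 2658 to 2692 CPM in Cre cultures of Ldha f/f. In Nampt f/f they were at 3524 to 3574 and 2282 to 2318 CPM, and in Nfkbiz f/f at 692.6 to 713.7 and 778 to 855.9 CPM. Summed endothelial markers were at 5.243 to 5.739 CPM in GFP and 17.12 to 21.2 CPM in Cre cultures of Ldha f/f. They were at 6.854 to 7.613 and 23.15 to 26.45 CPM in Nampt f/f, and at 3.782 to 5.01 and 7.047 to 7.825 CPM in Nfkbiz f/f. Most of this was 1 gene, Kdr, a receptor of endothelial cells, which went from 1.685 and 1.646 to 17.73 and 13.96 CPM in Ldha f/f and from 1.883 and 1.976 to 21.76 and 19.69 in Nampt f/f. Pecam1, an adhesion molecule of the same cells, fell in Nampt f/f from 3.045 and 2.964 to 0.8566 and 0.9177 CPM (-1.74 ± 0.36), and Kdr was the only called gene of the list in Ldha f/f. Macrophage and leukocyte markers were at 33.12 to 34.67 and 26.63 to 28.67 CPM in Ldha f/f, 25.25 to 29.69 and 21.47 to 21.9 in Nampt f/f, and 48.6 to 51.76 and 53.38 to 56.76 in Nfkbiz f/f. The part of any of these cell types in the class I values was not tested.

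In wild-type chondrocytes no comparison gave a called gene in edgeR's quasi-likelihood test over 15461 genes. IL-1β, FX11 and both together against untreated, and FX11 added to IL-1β, each called 0% of all genes and 0 of 10 members. At an unadjusted p under 0.05 the members numbered 0, 0, 2 and 1, DESeq2 and voom called 0 members, and over all genes 153, 68, 860 and 102 had such a p while DESeq2 called 6, 2, 153 and 1. The spread between the 2 libraries of a condition was wide. H2-K1 was at 25.66 and 99.66 CPM untreated, 24.52 and 299.8 in the libraries labelled FX11, 153.4 and 127.5 in those labelled IL-1β, and 126.4 and 244.5 with both.

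Within title set 1, H2-K1 was 2.58 higher (log2) with IL-1β than without, Tapbp 2.43, Nlrc5 1.77 and H2-D1 0.98. In set 2, whose library labelled IL-1β ran against its label, the same differences were 0.36, -0.87, 0.17 and 0.00. FX11 against untreated gave -0.07 for H2-K1 and -0.16 for Tapbp in set 1, and 1.59 and 1.91 in set 2. FX11 added to IL-1β gave -0.28 and -0.27 in set 1 and 0.94 and 2.38 in set 2. All of these FX11 differences in set 2 use a library that went against its label, so they cannot be read as FX11 effects. Each of these values compares 1 library with 1, with no test. The nonclassical heavy chain H2-T24, singled out after its values were seen, was at 0.9936 to 2.127 CPM in set 1 wild-type libraries, whatever the treatment. It was at 10.94 to 11.98 CPM in those of set 2 and at 4.152 to 17.51 in the floxed lines. Of other heavy chains picked the same way, H2-T22 was at 1.624 and 20.69 CPM in the untreated libraries of sets 1 and 2. H2-T23 was at 1.565 and 6.578 CPM there. H2-T10 (2.805 and 1.066) and H2-Q4 (9.743 and 4.924) went the other way.

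**Figure D5:**
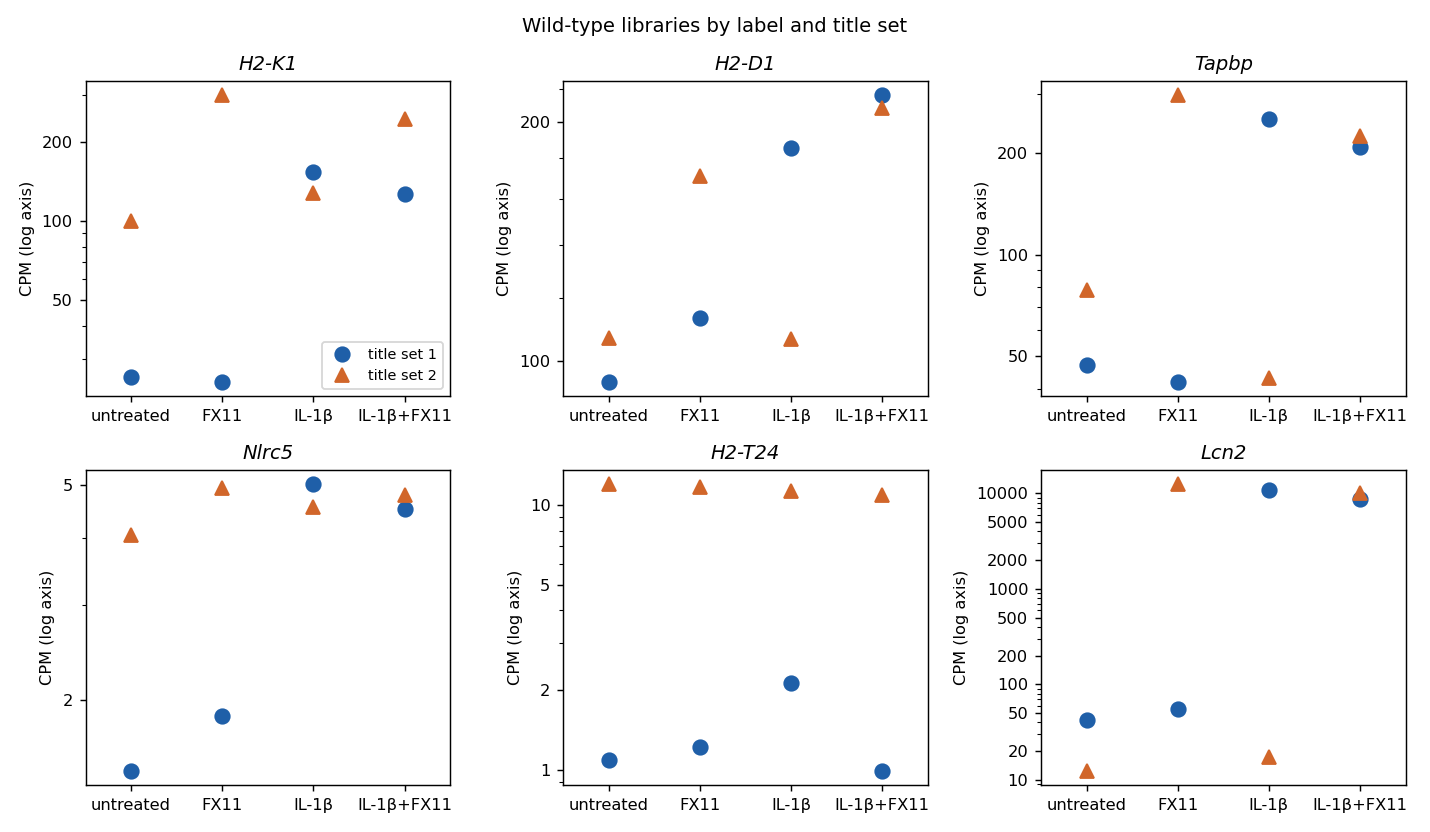
TMM-scaled CPM of H2-K1, H2-D1, Tapbp, Nlrc5, H2-T24 and Lcn2 in the 8 wild-type libraries on log axes, by labelled treatment, with circles for title set 1 and triangles for title set 2. Lcn2 is at 12540 CPM in the set 2 library labelled FX11 and at 17.17 CPM in the set 2 library labelled IL-1β, and H2-T24 separates the sets in every treatment.

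Leaving out the 2 libraries that run against their labels, a choice made after seeing the data, left 30 libraries in one model. IL-1β in wild type then gave log2 fold changes of 1.31 ± 0.44 for H2-K1, 0.90 ± 0.11 for H2-D1 and 2.02 ± 0.17 for Tapbp. In that model the lone IL-1β library is assumed to vary like the other conditions, most of them virus-treated. A fit within the wild-type libraries alone, without the same 2, called hardly any gene for IL-1β or for IL-1β with FX11. Calls in the larger model thus lean on the spread of the other lines. IL-1β with FX11 against untreated called 5, H2-K1, H2-D1, Tap1, Tap2 and Tapbp (15.6% of genes), FX11 alone called 0 (0.211%) and FX11 added to IL-1β called 0 (0.751%).

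GFP cultures without IL-1β were also set against untreated wild type. Virus and floxed line cannot be told apart here, since no wild-type culture had virus. The untreated wild-type libraries of the 2 sets also differed in several heavy chains, as given above. H2-D1 was lower in GFP cultures (-1.11 ± 0.07, adjusted p = 0.000856), at 39.49 to 61.25 CPM against 94.04 and 106.9. Tap1 was higher (0.74 ± 0.12, adjusted p = 0.0136), and Psmb10 was lower (-0.56 ± 0.14, adjusted p = 0.0424), which made 3 of 10 members called where 12.6% of genes were. Within the sets H2-D1 differed by -1.23 and -1.13, Tap1 by 0.81 and 0.62 and Psmb10 by -0.58 and -0.57. H2-K1 differed by 0.74 in set 1 and -0.84 in set 2, and pooled it was -0.21 ± 0.29. Psmb10 was called in 1 of 8 fits that left out 1 library. Without the set 2 untreated wild-type library H2-K1 was 0.77 higher in GFP cultures, and 5 members were called. All genes called were then 19.8%. Without the set 1 one 8 members and 41.5% of all genes were called, and without either Nfkbiz f/f GFP library 1 member and 2.91% or 2.83% of genes. All 8 macrophage and leukocyte markers were lower in GFP cultures, their summed level 14.19 to 24.79 CPM there, and muscle markers summed to 127.1 to 217.0 CPM in wild-type libraries of set 1 and to 21.58 to 43.14 in those of set 2, against 2.405 to 44.76 in all virus-treated libraries. Their part in these differences was not tested.

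Over the 24 virus-treated libraries the members did not move as one block. Pearson's r of log2 CPM between pairs ran from 0.13 to 0.98 with a median of 0.64 over 45 pairs, as a description of libraries that share condition, line and set. H2-K1 followed H2-D1 (0.98) and Tapbp (0.98), while r of Tap1 was 0.23 with H2-K1 and 0.21 with Tapbp, and r of Tap2 with Psmb8 was 0.13. Across all 32 libraries, the genes outside the list most like the mean of the 10 members were Homez (r = 0.889), Cd74 (0.877), Ifngr2 (0.851), Erap1 (0.849), Sept3 (0.845), Icam1 (0.845), Irf1 (0.841), Psme1 (0.835), Parp10 (0.834) and Tor4a (0.834). These libraries also share condition, line and set, so no p is given.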

How the data were processed

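RNA was measured in 32 libraries. Per the labels and the study's methods, the authors aligned reads with STAR to GRCm38 (version 2.0.4b in the submitters' processing notes), and counted uniquely aligned unambiguous reads per gene with featureCounts. The deposited counts are not normalized, the deposited CPM divides them by the library total, and the deposited RPKM also by gene length and was used only to compare levels between genes. Strand use and replicate origin are not given in the sources used here. Groups came from the labels. The title styles of the labels form 2 sets, of 12 and 20 libraries.

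Symbols came from GENCODE (40340 of 41388 identifiers named, 1048 not). Counts were tested with edgeR 4.0.16 in R 4.3.3 (TMM, quasi-likelihood test, two-sided, Benjamini-Hochberg adjusted p of 0.05 or less) over genes above 1 CPM in at least 1 library, without 355 rRNA genes, within the 8 libraries of a line or of wild type. Comparisons across lines held the title set as a term. Alternatives used limma 3.58.1 (voomWithQualityWeights, the study's test), DESeq2 1.42.0, RLE factors, no filter, one model over all libraries, the title set as a replicate block, unadjusted p-values and leaving out 1 library. The fits were tested on simulated data. Set numbers pair Ldha f/f and Nampt f/f libraries (correlation of deviations 0.373 to 0.596 and 0.371 to 0.499), but not wild type (-0.181 to 0.730), and Nfkbiz f/f libraries are all of set 2.

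Members and lists were chosen with earlier results of these data known, and models without 2 doubted wild-type libraries were added after seeing the data. All members and the 3 deleted genes are named. From each other list, up to 3 called genes with the smallest adjusted p in each direction could be named, per line, for IL-1β in GFP cultures and for Cre under IL-1β, as could the 10 genes with the highest r to the mean of the members' standardized log2 CPM. Figures used Python 3.11.15, pandas 2.3.3 and matplotlib 3.10.9. Depth was 15830658 to 39959888 counts per library, which leaves Psmb8 and Psmb9 at 4 to 128 and 7 to 80 counts.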

Additional observations from a re-analysis of the deposited data

Results flagged for a closer look

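Each value here was singled out because an effect differed between cultures or lines by a test of the difference itself. In Nampt f/f, the IL-1β response was larger in Cre than in GFP cultures by 0.50 ± 0.15 (log2) for H2-K1 and by 0.46 ± 0.11 for H2-D1, and both calls were lost in part of the fits that left out 1 library (called in 2 of 8 and 4 of 8). In GFP cultures, the IL-1β response in Nfkbiz f/f exceeded the mean of Ldha f/f and Nampt f/f by 0.56 ± 0.10 for H2-K1 and 0.44 ± 0.09 for Tapbp, and held in 12 of 12 such fits. Under IL-1β, the Cre effect in Nfkbiz f/f exceeded that mean by 0.82 ± 0.16 for B2m and 0.91 ± 0.16 for Tap1, and held in 12 of 12, with B2m falling to 0.43 in the lowest of them. The interaction test in Nampt f/f called 22% of all genes. The comparison of IL-1β responses between lines called 4.4% of all genes, and that of Cre effects under IL-1β called 37.4%. In the Nampt f/f interaction and the comparison of Cre effects, the members' share called was below that of all genes. Nfkbiz f/f libraries are all of title set 2, so line and set are only partly separable. The lines also differed in fibroblast and perichondrial markers, as given above. Without the set term the H2-K1 difference in IL-1β response did not pass edgeR's test (adjusted p = 0.0759). Groups of 2 libraries were not tested for single outlying libraries.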

How the results depend on the processing

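Over all alternatives, 2767 values of single members kept their side of the threshold, and any that changed sign while passing in neither fit are among them. Another 103 passed only under the alternative and 156 only in the tests reported above. For 2 values the sign reversed with a call in at least 1 of the fits compared. Of the counts of called members, 240 stayed within 1.5 times and 63 did not. The reversals were in GFP against virus-free cultures without wild-type untreated replicate 2. With 1 library left out H2-K1 (-0.21) ranged from -0.83 to 0.77 and Tapbp (-0.17) from -0.50 to 0.29.

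In one model over all 32 libraries, which includes the 2 wild-type libraries that run against their labels, IL-1β in GFP cultures called 2 members in each line (6.3%, 9.73% and 9.3% of all genes in the Ldha, Nampt and Nfkbiz lines). IL-1β in Cre cultures called 2, 3 and 3 (15.6%, 20.3% and 3.89%), and Cre under IL-1β 1, 2 and 2 (13.6%, 25.6% and 3.61%). In Nampt f/f it called 0 for Cre without IL-1β (1.25%) and 0 for the interaction (3.07%), and in wild type 2 for IL-1β with FX11 (7.69%). Over 30 libraries without those 2, chosen after seeing the data, Nampt f/f gave 4 for IL-1β in GFP cultures (19.5%) and 2 for Cre without IL-1β (4.04%). Nampt f/f also gave 3 for Cre under IL-1β (33.6%) and 1 for the interaction (8.16%). Nfkbiz f/f gave 4 for Cre under IL-1β (10.7%), and wild type gave 5 for IL-1β with FX11 (15.6%). IL-1β in wild type has 1 library in that model, so only its log2 fold changes are given above.

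The replicate block gave 5 for Cre without IL-1β, 9 for Cre under IL-1β and 2 for the interaction in Ldha f/f, and changed no other count of calls by over 1.5 times. Unadjusted p-values gave 5, 7 and 3 there, 2 for Cre without IL-1β and 3 for the interaction in Nfkbiz f/f, 2 for IL-1β with FX11 and 1 for FX11 added to IL-1β in wild type, 5 for GFP against virus-free cultures and 4 for Ldha f/f minus Nampt f/f. For those last 2 voom gave 1 and 2, and it gave 8 for Cre under IL-1β in Ldha f/f and 1 for the interaction in Nfkbiz f/f. Without the filter the values were 7 for Cre under IL-1β and 1 for the interaction in Ldha f/f, and 1 for Cre without IL-1β and 1 for the interaction in Nfkbiz f/f. DESeq2 gave 1 for the interaction in the Ldha line and 1 in the Nfkbiz line. Without the title set term the IL-1β difference of Nfkbiz f/f from the other lines had 1. The cause of these changes was not tested.

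With 1 library left out, the counts ranged from 5 to 6 (IL-1β in GFP cultures), 1 to 4 (Cre without IL-1β) and 0 to 2 (interaction) in Nampt f/f, from 0 to 1 (interaction) in Ldha f/f, from 3 to 7 (Cre under IL-1β) and 0 to 3 (interaction) in Nfkbiz f/f, and from 1 to 8 in GFP against virus-free cultures. Counts of reads limit Psmb8 and Psmb9 most.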
